A study of Mus musculus with 18 samples.

Results

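On day 8 of reprogramming, high-KLF4 cells showed 206 genes, measured by 217 probes, at a level at least 2-fold above that in low-KLF4 cells of the same day, in mESCs and in primary keratinocytes. They were taken from 21789 probes that carry 1 gene symbol. A probe was kept when the mean log2 signal of the 2 high-KLF4 day 8 arrays was at least 1 above the mean of each of the 3 other groups. In that order, 576 probes passed against low-KLF4 day 8 cells, 459 of them against mESCs and 239 of those against keratinocytes. Probes with both day 18 arrays at least 1 above every other sorted or pluripotent group were to be removed, and 0 were. A further 22 probes were removed because their symbol starts with Krt, Klk, Ly6, Serpinb, Sprr, Aldh or Alox. The members were thus chosen by their day 8, mESC, keratinocyte and day 18 values, which are given below as a description with no test. Tests were run only on days 2 and 4 and on the iPSC clones.

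The 18 arrays, on the Affymetrix Mouse Gene 1.0 ST platform, fall into 12 groups. The starting cells were mouse embryonic fibroblasts with a Nanog-GFP reporter and, at the ROSA locus, a doxycycline transactivator, and they received a piggyBac transposon with a doxycycline-driven cassette of Oct4, Klf4, c-Myc and Sox2. The OKMS cassette holds the shorter Klf4 cDNA and gives low-KLF4 cells, and the OK+9MS cassette holds the longer Klf4 cDNA and gives high-KLF4 cells. Cells positive for the mCherry carried by the vector were sorted on days 2, 4, 8 and 18 of doxycycline at 1 µg/mL. Each cassette has 2 arrays on day 8 and 1 array on each other day. The iPSC clones A7 and A9 (OKMS) and A10 and H10 (OK+9MS) gave 1 array each, so every clone stands for a single line. The mESCs, which carry a Nanog-GFP reporter, and the primary mouse keratinocytes, taken from pups on postnatal day 2 and grown with EGF and cholera toxin, have 2 arrays each. All sorted populations share doxycycline, the transactivator and all 4 factors, and mCherry reports the cassette, not how far a cell has moved. The fibroblasts before doxycycline were not analysed here. Signals below are the authors' RMA intensities on a linear scale, and differences are in log2 units, so that 1 is a doubling. p-values measure only the spread between the 2 arrays of a group, to which days 2 and 4, with 1 array per cassette, add nothing. The groups with 2 arrays include the day 8, mESC and keratinocyte groups that chose the members. In such sorted bulk populations, fewer cells of a type and less RNA per cell cannot be told apart.

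KLF4 is a zinc finger transcription factor that binds GC-rich and CACCC-type sequences. It is one of the reprogramming factors, and in the body it is best known from the differentiated layers of skin, gut and other epithelia. During reprogramming, fibroblasts lose mesenchymal and gain epithelial features before the pluripotency network is established, and many genes that belong to neither the starting nor the final cell type are expressed on the way.

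The reference groups carried their own markers. Krt5, a keratin of the basal epidermis, read 12142 and 11903 in the keratinocyte arrays and 161 and 201 in high-KLF4 cells on day 8. Trp63, the transcription factor of stratified epithelia, read 885 and 1018 in keratinocytes and 119 and 95.0 in those cells. Krt14 was brighter there, at 3779.9 and 5459 against 315 and 251 in low-KLF4 cells. The summed signal of 20 keratinocyte markers was 82203 to 84473 in keratinocytes, 27019 to 39932 in high-KLF4 cells on day 8 and 11710 to 16253 in low-KLF4 cells of that day. Beside the members, then, part of a keratinocyte marker list was also brighter in high-KLF4 than in low-KLF4 cells, and its part in the results was not tested.

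Most members were dim in keratinocytes, but not all were. The median member signal there was 125.3, beside 140.7 over all probes, and 121 of 217 probes lay below that all-probe median. The range ran from 28.9 to 1999.5, and 20 members lay above the upper quartile of all probes, 590.1. The files hold no detection call, so that absence cannot be stated for any member, and for these 20 the data go against it. In mESCs the median was 134.2, with 15 members above the upper quartile. In high-KLF4 cells on day 8 it was 689.3, with 124 members above the upper quartile.

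**Figure D1:**
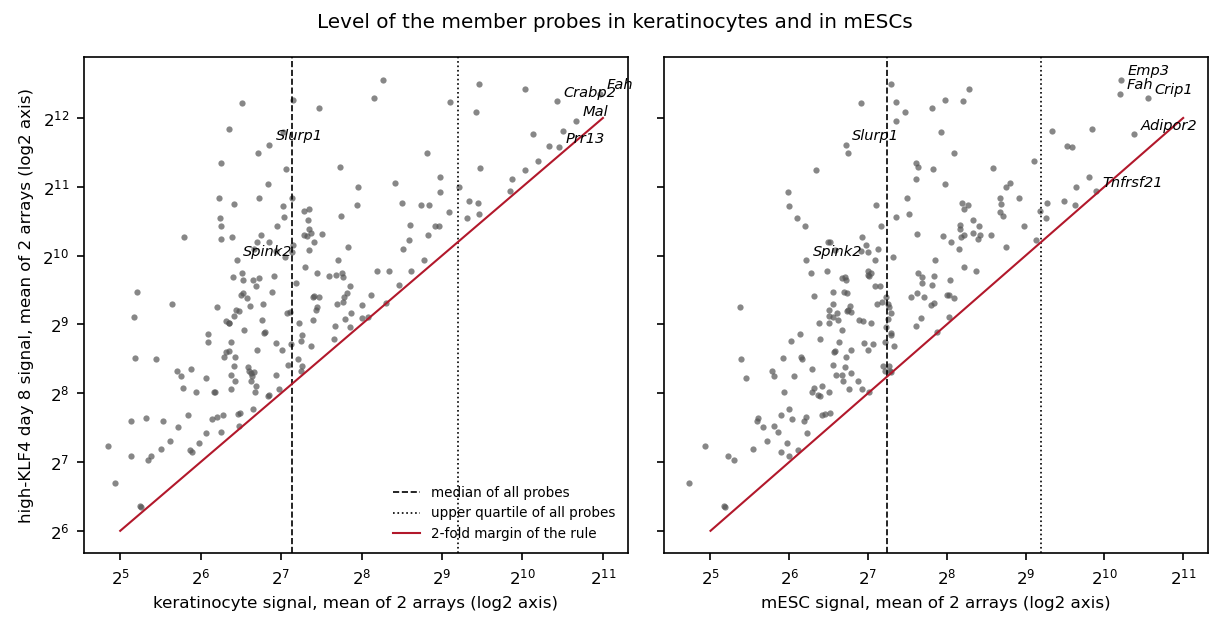
Mean signal of each member probe in high-KLF4 cells on day 8 against that in keratinocytes (left) and in mESCs (right), RMA intensity on log2 axes, 1 point a probe, with the 2-fold margin as a line and the median and upper quartile of all probes as vertical lines. In keratinocytes 121 points lie left of the median and 20 right of the upper quartile, among them Fah, Mal, Crabp2 and Prr13.

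The members brightest in keratinocytes have varied roles. Fah, the last enzyme of tyrosine breakdown, read 1947 and 2053 in keratinocytes, 4559.7 and 6013 in high-KLF4 cells on day 8, and 1299.6 and 1065 in mESCs. Mal, a membrane protein of apical transport and myelin, read 1515 and 1746 in keratinocytes and 166 and 161 in mESCs. Creb3, a membrane-bound transcription factor, read 1449 and 1457 in keratinocytes. Prr13, whose product is little studied, and Crabp2, a carrier of retinoic acid, lay at 1467 and 1351 and at 1395 and 1364. All 5 were above 2 times these levels in high-KLF4 cells on day 8, as the rule requires. The brightest in mESCs were Crip1, a LIM domain protein, at 1491 and 1528, Adipor2, an adiponectin receptor, at 1388 and 1274, Emp3, a membrane protein, at 1348 and 1044, Fah, and Tnfrsf21, a death domain receptor, at 1043 and 873. These genes are raised on day 8 over a level that other groups already had.

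The promoters of the members are shown because the cassettes differ in a DNA-binding factor. RefSeq windows of 250 bases before the start, on GRCm38.p6, were found for 159 of the 206 genes, in 196 windows. The letters GGGNGTGG, a KLF-type sequence searched on both strands, were in 46 of these windows, or 23.5%, against 18.7% of 19116 windows of array genes and 15.9% of all 32851 windows in the table. The AP-1 letters TGANTCA were in 9.18% of member windows and 6.03% of array gene windows, and the TATA letters TATAAA were in 9.18% and 10.6%. For the grainyhead letters AACCNGTT the shares were 1.02% and 1.68%, for the octamer ATGCAAAT 1.02% and 1.5%, and for the TEAD letters GGAATG 13.8% and 11.4%. The median GC content was 58.4% in member windows and 56.8% in array gene windows. Each letter string can occur by base composition alone, and the shares are descriptions, not sites. The windows below are written 5′ to 3′ on the strand of the gene with KLF-type letters, or their reverse complement, in capitals. Dkkl1 (chr7:45211884-45212133, minus strand) holds 2 matches, and Gpr50 (chrX:71663417-71663666, plus strand) and Tspan15 (chr10:62231219-62231468, minus strand) hold 1 each. Mal (chr2:127656696-127656945, minus strand) and Gabrp (chr11:33578958-33579207, minus strand) hold none. The printed windows are examples and do not give the share of windows with a match. Of other leading members with a window, Mexis held 1 match in 1 of its 2 windows. Crybg1, Spink2, AA467197, Npc1l1, B3gnt3 and 4930550L24Rik held none in any window. Slurp1 and Nccrp1, the members with the largest day 8 differences, had no entry.
Dkkl1: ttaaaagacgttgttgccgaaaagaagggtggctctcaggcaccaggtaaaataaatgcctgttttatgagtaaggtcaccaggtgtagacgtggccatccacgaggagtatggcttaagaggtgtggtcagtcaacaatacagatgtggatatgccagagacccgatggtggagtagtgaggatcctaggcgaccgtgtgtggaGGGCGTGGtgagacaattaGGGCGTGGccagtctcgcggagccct
Gpr50: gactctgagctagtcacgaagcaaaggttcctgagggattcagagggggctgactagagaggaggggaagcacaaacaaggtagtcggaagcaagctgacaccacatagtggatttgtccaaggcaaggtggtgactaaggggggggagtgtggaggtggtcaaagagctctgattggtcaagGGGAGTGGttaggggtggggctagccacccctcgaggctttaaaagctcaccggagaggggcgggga
Tspan15: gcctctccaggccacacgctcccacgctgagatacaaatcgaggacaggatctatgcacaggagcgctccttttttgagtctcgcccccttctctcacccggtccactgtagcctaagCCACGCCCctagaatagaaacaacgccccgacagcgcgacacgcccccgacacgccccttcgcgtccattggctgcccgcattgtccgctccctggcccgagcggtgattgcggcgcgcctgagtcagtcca
Mal: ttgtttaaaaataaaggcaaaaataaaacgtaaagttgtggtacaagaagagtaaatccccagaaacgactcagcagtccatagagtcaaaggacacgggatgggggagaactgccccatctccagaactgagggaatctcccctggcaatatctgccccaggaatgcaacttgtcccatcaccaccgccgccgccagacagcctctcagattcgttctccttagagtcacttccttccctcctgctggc
Gabrp: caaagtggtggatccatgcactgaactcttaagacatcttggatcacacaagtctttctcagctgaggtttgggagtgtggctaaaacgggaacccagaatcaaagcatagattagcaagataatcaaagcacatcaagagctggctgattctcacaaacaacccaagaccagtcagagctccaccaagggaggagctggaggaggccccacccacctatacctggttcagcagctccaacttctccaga

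The 2 largest day 8 differences belonged to genes known from barrier epithelia, Slurp1 and Nccrp1. In what follows, signals are given in order of day 2, day 4, the 2 arrays of day 8 and day 18, with high-KLF4 values first and low-KLF4 values after "against". Slurp1, on chr15:74726644-74728023, encodes a secreted protein of the Ly6 and uPAR fold that binds nicotinic receptors. Its signals were 662, 2253, 2178, 4499 and 217 with high KLF4 and 139, 129.6, 128, 122 and 151 with low KLF4. The clones, mESCs and keratinocytes lay between 93.7 and 122. The high-KLF4 arrays of days 2 to 8 were thus above every other array, and the day 2 and 4 difference, from arrays that did not choose the gene, was 3.19 ± 0.27 (SE; limma, adjusted p = 0.00168). The SE, here and below, comes from the groups with 2 arrays, among them those that chose the gene. Nccrp1, an F-box associated protein of stratified epithelia on chr7:28543592-28547748, had the largest such difference of the named genes, 3.79 ± 0.49 (adjusted p = 0.0114). Its signals were 1718, 2802, 2589, 7262 and 1233 in high-KLF4 cells against 170.2, 148, 127, 264 and 239 in low-KLF4 cells in the same order, with 839 and 563 in keratinocytes. Crybg1, a crystallin-fold protein linked to cell motility, read 933, 2005, 1718, 3446 and 212 against 201, 141, 164, 206 and 118, and keratinocytes reached 1115 and 980.3. It differed by 3.02 ± 0.27 on days 2 and 4 (adjusted p = 0.00215). These genes thus stood high in the high-KLF4 cells 6 days before the day on which they were chosen.

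Spink2, an inhibitor of acrosin-type serine proteases best known from testis, had the smallest adjusted p among the members. In high-KLF4 cells it read 700.0, 947, 861, 1119 and 206 in order of day, and in low-KLF4 cells 113, 109, 84.4, 74.5 and 98.4. Its difference on days 2 and 4 was 2.88 ± 0.13 (adjusted p = 4.31e-05), and no array of the clones, mESCs or keratinocytes exceeded 91.5. Mal read 1239, 2030.0, 2942, 5408 and 1854 in high-KLF4 cells against 148, 246, 316, 371 and 212 in low-KLF4 cells, a difference of 3.05 ± 0.26 (adjusted p = 0.00168). Msln encodes mesothelin, a surface protein of mesothelium and of several carcinomas. It was already at 3249 on day 2 and stayed at 4847, 4685 and 4931 through day 8, while low-KLF4 cells went from 1277 to 644, 452 and 433, and the test gave 2.13 ± 0.14 (adjusted p = 0.000367). The mesothelial list held 15 measured genes, 2 of them members, and 4 were called higher on days 2 and 4, namely Msln, Upk1b, Krt8 and Krt19, against 0 lower. Over all tested probes, 0.795% were called higher and 0.192% lower.

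Dkkl1, a secreted Dickkopf-like protein of the early embryo and acrosome, rose from day 2 to day 4 and again to day 8 in high-KLF4 cells. It read 393, 2087, 4130.2, 4927 and 2409 in high-KLF4 cells, and 149.9, 203, 251, 350.2 and 395 in low-KLF4 cells. The cassettes differed by 2.38 ± 0.17 on days 2 and 4 (adjusted p = 0.00062). Gabrp, the pi subunit of the GABA-A receptor, found in secretory epithelia, rose later. It read 109, 242, 440.0, 3153 and 351 in high-KLF4 cells, and low-KLF4 cells stayed between 67.8 and 107. Its day 2 and 4 difference, 1.13, did not pass the test (adjusted p = 0.743), and its 2 day 8 arrays lay further apart than those of the other leading genes. Adgrd1, an adhesion G-protein coupled receptor, read 521, 1059, 673, 2436 and 158 against 118, 107, 146, 142 and 108, and differed by 2.72 ± 0.48 (adjusted p = 0.0474).

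**Figure D2:**
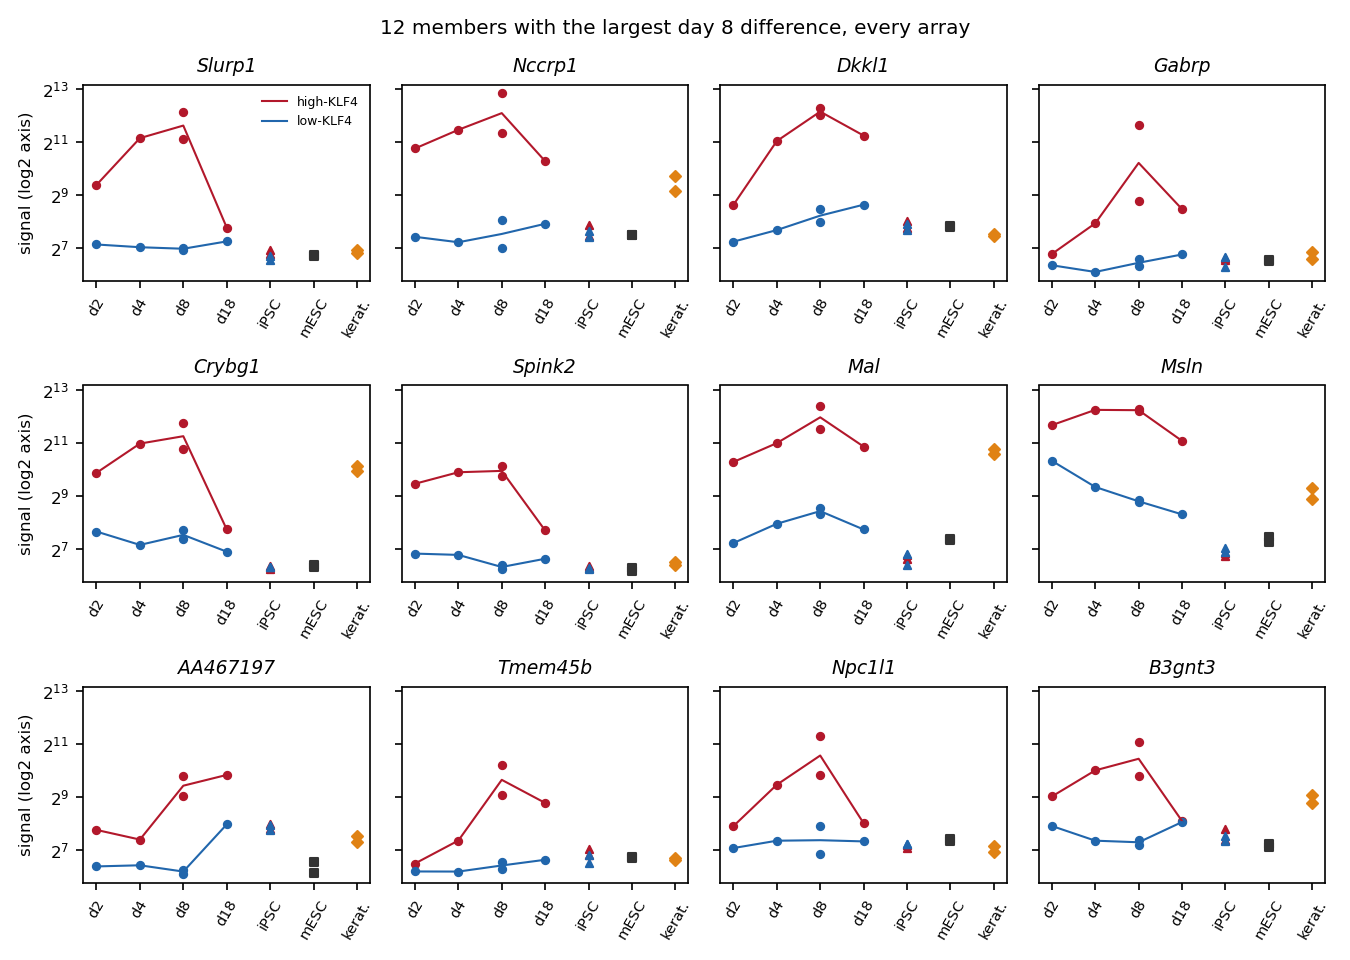
Signal (RMA intensity, log2 axis) of the 12 members with the largest day 8 differences in every array, 1 point an array, with high-KLF4 and low-KLF4 arrays by day (lines join the means), the clones as triangles, mESCs as squares and keratinocytes as diamonds. The high-KLF4 points of Slurp1 lie between 662 and 4499 on days 2 to 8, and every low-KLF4 point of that gene lies between 122 and 151.

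Over all members, the cassettes were compared on days 2 and 4. Of 23410 probes tested, 0.795% were called higher in high-KLF4 cells and 0.192% lower. Among the 217 members, 56 probes for 52 genes were called higher, or 25.8%, and 0 lower by limma, also at an unadjusted p under 0.05. The median member difference was 1.00, against -0.01 over all probes tested. By sign alone, 214 of 217 were above 0, and 149 passed higher at an unadjusted p under 0.05. Of 20 keratinocyte markers measured, none of them members, 5 were called higher and 0 lower in the same test, with a median of 0.84. The count moves with the arrays in the fit: it was 9 without either day 4 array, when the comparison rests on day 2 alone, 29 without either day 2 array, 114 without either high-KLF4 day 8 array and 169 with all 4 day 8 arrays left out, where 3.92% of all probes were called higher.

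The gene groups below are lists written with the members known, so each count is a description. Beside every list count of calls on days 2 and 4 stand 0.795% higher and 0.192% lower over all tested probes. Beside every count of members stand 206 members of 19938 genes with a 1-symbol probe. Each gene was read from its brightest probe with 1 symbol. Of 37 secretory and mucosal genes, 14 were members, and 4 were called higher on days 2 and 4 and 0 lower, with a median of 0.21 over the list. Npc1l1, the intestinal cholesterol transporter, read 237, 701, 899.6, 2522 and 256 in high-KLF4 cells against 134, 162, 114, 237 and 159 in low-KLF4 cells, and did not pass on days 2 and 4 (1.47, adjusted p = 0.294). B3gnt3, a glycosyltransferase that extends mucin-type and other sugar chains, read 515, 1021, 885, 2163 and 271 against 238, 162, 165, 146 and 264 and missed the threshold (1.88, adjusted p = 0.0613). Both were thus above low-KLF4 cells on days 4 and 8, with less between the cassettes on day 18.

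Of 42 ion channel genes, 10 were members, and 4 list genes were called higher and 1 lower on days 2 and 4. Beside Gabrp, the members with the largest day 8 differences were Abcc8, the sulfonylurea receptor of potassium channels, with 321 and 896 against 128 and 168, and Kcnj12, an inward rectifier, with 216 and 518 against 85.7 and 102. Neither passed on days 2 and 4 (adjusted p = 0.812 and 0.113). Of 12 aquaporins, 4 were members, namely Aqp1, Aqp3, Aqp5 and Aqp7, and 2 were called. Aqp3, which carries water and glycerol in basal epithelial membranes, read 1711, 2567, 1679, 2715 and 625 in high-KLF4 cells against 269, 469, 390.2, 432 and 291 in low-KLF4 cells and differed by 2.56 ± 0.27 (adjusted p = 0.00447). Aqp5, the water channel of glands and airways, read 2033, 729, 532, 855 and 256 against 597, 228, 229.8, 187 and 253 and differed by 1.72 ± 0.20 (adjusted p = 0.00712), with both cassettes highest on day 2. Aqp1, a water channel of vessels and kidney, read 1065 and 691 on days 2 and 4 against 389 and 304 and did not pass (adjusted p = 0.381). Aqp7, an adipose glycerol channel 44487 bases from Aqp3, stayed between 74.7 and 224 in high-KLF4 cells.

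Of 21 cell-surface receptor genes, 12 were members and 3 were called higher. Gpr50, an orphan receptor related to those for melatonin, kept its early level in high-KLF4 cells at 1457, 1717, 1509 and 1879.5 through day 8, while in low-KLF4 cells it read 1098, 597, 162 and 225. Ret, the receptor of the GDNF family, read 231, 426, 637, 1768 and 373 against 106, 112, 149.9, 98.9 and 129.7 and did not pass on days 2 and 4 (1.53, adjusted p = 0.177). No other gene of the 9 measured RET receptor and ligand genes was a member, and 0 of the 9 were called on days 2 and 4 in either direction. Of 24 secreted ligands and inhibitors, 8 were members and 3 were called. Nppb, the B-type natriuretic peptide, read 916, 1330.1, 1812, 2079 and 1047 in high-KLF4 cells against 422, 290.3, 475, 302 and 327 in low-KLF4 cells and differed by 1.66 ± 0.20 (adjusted p = 0.00717). Bmp2, a bone morphogenetic protein, read 233, 189.5, 284 and 326 through day 8 against 137, 101, 151 and 63.5, and on day 18 the 2 cassettes were at 485 and 552.

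Of 22 proteases, inhibitors and transglutaminases, 12 were members, 6 list genes were called higher and 0 lower. Tgm3, a transglutaminase, read 749, 1896, 2085, 6095 and 256 against 242, 613, 483, 761 and 191, but it did not pass on days 2 and 4 (1.63, adjusted p = 0.176). Its keratinocyte signals were 132 and 127. Pi16, a secreted protein with a protease inhibitor name, differed by 1.70 ± 0.11 (adjusted p = 0.000405), with 299.5, 447, 459 and 587 through day 8 against 114, 111, 93.5 and 94.5. Htra4, a secreted serine protease known from placenta, read 283, 457, 434 and 489 against 182, 170.4, 185 and 183 and differed by 1.03 ± 0.12 (adjusted p = 0.00717). Capn8, a stomach calpain, was among the dimmest at 95.9 to 239. Birc7, an inhibitor of apoptosis, was 1 of 3 members among 14 inflammasome and cell death genes, of which 2 were called higher. It read 322, 787, 486, 708 and 141 in high-KLF4 cells and 84.4 to 107 in low-KLF4 cells, and differed by 2.38 ± 0.17 (adjusted p = 0.000608). Nlrp10, an NLR protein of skin, read 134, 161, 149 and 225 through day 8 against 62.7, 59.3, 53.5 and 55.4, and passed as well (1.27 ± 0.18, adjusted p = 0.015).

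Enzymes of lipid, steroid and foreign compound metabolism were the list with the most members. Of 31 measured, 17 were members, and 5 list genes were called higher on days 2 and 4 and 0 lower, with a median of 0.43. The called genes were Cyp2s1, Suox, Adipor2, Idi2 and Dgat2, the last of them no member. Cyp2s1, a cytochrome P450 of epithelia, read 721, 1703, 4193, 7244 and 1546 against 184, 412, 694, 1031 and 377 and differed by 2.01 ± 0.35 (adjusted p = 0.0432). Suox, the mitochondrial sulfite oxidase, read 1391, 1660.4, 1311 and 2299 through day 8 against 636, 508, 322 and 396 and differed by 1.42 ± 0.25 (adjusted p = 0.0472). Adipor2 read 3062 and 2828 on days 2 and 4 against 1393 and 1708, a smaller difference of 0.93 ± 0.10 (adjusted p = 0.00447).

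Of 22 prostaglandin and eicosanoid genes, 4 were members, and 1 was called higher, Cbr3, and 1 lower, Ptger3. Mboat1, a lysophospholipid acyltransferase, read 1368, 1750.4, 1731, 2855 and 578 in high-KLF4 cells against 694, 572, 314, 368 and 276 and missed the threshold (1.30, adjusted p = 0.0613). Cyp4f39, a fatty acid hydroxylase of skin ceramide synthesis, read 3573, 4761, 4914, 6793 and 1575 against 1190.3, 2568, 1289, 1559 and 119, and its day 2 and 4 difference of 1.24 did not pass (adjusted p = 0.111). Cbr3, a carbonyl reductase, read 425, 528, 529, 428 and 224 against 234, 141, 174, 111 and 148 and differed by 1.38 ± 0.23 (adjusted p = 0.0341).

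Of 15 central carbon and nucleotide enzymes, 8 were members and 1 was called. Fbp2, a fructose bisphosphatase of muscle, was the called gene at 0.91 ± 0.15 (adjusted p = 0.03), with 159.5, 198, 226 and 314 through day 8 against 96.1, 93.4, 85.2 and 91.9. Slc2a6, a glucose transporter family member, read 762 and 1819.5 on day 8 against 267 and 507, and Nt5c1a, a cytosolic nucleotidase, read 89.6 and 332 against 58.9 and 64.3. For Nt5c1a the difference thus rests on the second high-KLF4 array.

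Plek2, a pleckstrin family protein of membrane ruffles, read 1118, 1761, 1292, 2269.7 and 207 in high-KLF4 cells against 310.4, 293, 193, 331 and 115 in low-KLF4 cells and differed by 2.22 ± 0.31 (adjusted p = 0.0148). Rhof, a small GTPase of filopodia, read 668, 1239.5, 826, 1454 and 232 against 195, 181, 201, 194 and 243 and differed by 2.28 ± 0.23 (adjusted p = 0.00339). For Misp, a spindle and cortical actin protein, the signals of 132, 339, 324 and 834 through day 8 against 90.4, 95.0, 96.6 and 125 did not pass on days 2 and 4 (adjusted p = 0.275).

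Of 24 transcription factors measured, 13 were members. On days 2 and 4, 2 list genes were called higher, the member Zfp78 and the epithelial ETS factor Ehf, beside 0.795% of all tested probes. Gata2, a factor of blood, trophoblast and endothelium, read 986 and 1818 on day 8 against 419 and 177 and did not pass on days 2 and 4 (1.58, adjusted p = 0.158). Elf5, an ETS factor of gland and trophoblast lineages, read 67.4, 87.7, 281, 666 and 617 in high-KLF4 cells against 66.9, 66.5, 99.0, 160.3 and 108 in low-KLF4 cells, so that it stood apart on days 8 and 18 but not on day 2. Isx, an intestinal homeobox factor, read 88.9, 98.3, 125 and 541 through day 8, with only the second day 8 array well above the rest. Obox6, an oocyte homeobox gene, read 39.2, 343, 808, 626 and 70.0 against 37.5, 79.3, 112, 175 and 65.6.

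Some members are known from other cell types. Of 27 immune and blood genes, 13 were members and 4 were called higher, while Ptprc, the pan-leukocyte CD45 gene, read 52.1 to 66.8 over the sorted arrays. On day 8 the summed signal of this list was 10355 and 17302 in the 2 high-KLF4 arrays, above 4828 and 6575 in the low-KLF4 arrays, and its part in these members was not tested. Chit1, a chitinase of macrophages, read 137, 369, 326, 399.5 and 183 in high-KLF4 cells against 76.2 to 91.0 in low-KLF4 cells and differed by 1.49 ± 0.13 (adjusted p = 0.00168). Fermt3, a kindlin of blood cells, read 152, 302, 291 and 761 through day 8 against 131, 123, 122 and 104 and did not pass (adjusted p = 0.577). Hbb-y, an embryonic globin, was highest on day 2 in both cassettes, with 1038, 639, 548, 168 and 60.2 against 314, 108, 72.4, 73.9 and 56.2. Of 18 endothelial genes, 2 were members and 0 were called in either direction. Tie1, an endothelial receptor, read 124, 115, 259, 378 and 318 in high-KLF4 cells against 94.1 to 108 in low-KLF4 cells, and Hspa12b, a heat shock protein of endothelium, read 322, 325, 425, 823 and 251 against 167, 173, 162, 95.2 and 213. Cdh5, which defines endothelium, read 85.2 to 103 on days 2 to 8, and 1409.7 in low-KLF4 and 551 in high-KLF4 cells on day 18. Summed, the endothelial list read 4896 and 6795 on day 8 with high KLF4 and 3591 and 3704 with low KLF4, and its part was not tested.

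Of 32 neuronal genes, 12 were members, and 2 list genes were called higher and 1 lower, while the neuronal markers Snap25 and Rbfox3 read 72.5 to 163 and 78.1 to 136 over the sorted arrays. Other neuronal markers were brighter there, with Stmn2 at 2994 to 6235 and Tubb3 at 159 to 1460.3. The summed signal of the list on day 8 was 20418 and 26178 with high KLF4 and 15019 and 15452 with low KLF4, and its part in these members was not tested. Nos1, the neuronal nitric oxide synthase, read 86.7, 152, 418, 1372 and 235 in high-KLF4 cells and 92.1 to 115 in low-KLF4 cells. Homer2, a postsynaptic scaffold protein, read 914, 1339.6, 1035, 1566 and 235 against 329, 516, 268, 375 and 168 and differed by 1.42 ± 0.24 (adjusted p = 0.0407). Bean1, an interactor of the ubiquitin ligase Nedd4, read 551, 404, 409.7 and 804 through day 8 against 192, 178, 220.4 and 135. Of 19 oocyte and early embryo genes, 3 were members, namely Dkkl1, Obox6 and Khdc1a, and 1 was called, while the oocyte genes Zp2 and Gdf9 read 38.3 to 45.6 and 77.0 to 103 over the sorted arrays. Summed over this list, the day 8 signal was 6918 and 7685 with high KLF4, of which Dkkl1 alone gave 4130 and 4927. With low KLF4 the sum was 1703 and 1853, and its part in these members was not tested. Khdc1a, a KH domain gene of oocytes, was dim at 38.5, 63.2, 69.5 and 156 through day 8. Of 18 trophoblast genes, 3 were members, namely Elf5, Gata2 and Htra4, and 1 was called. The trophoblast factors Cdx2, Eomes and Gata3 read 69.2 to 137, 72.9 to 1365 and 179 to 427 over the sorted arrays. Summed, the trophoblast list read 7147 and 8759 on day 8 with high KLF4 and 5381 and 5785 with low KLF4, and its part was not tested.

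Some members were fibroblast and interferon response genes. Of 52 fibroblast and matrix genes, 16 were members, and 4 were called higher, all of them members, and 0 lower. Dcn, the matrix proteoglycan decorin, read 5461, 6211, 5407, 4232 and 4514 in high-KLF4 cells against 437, 612, 3216, 1112 and 3245 in low-KLF4 cells, and differed by 3.49 ± 0.41 (adjusted p = 0.00683). Its difference was 3.64 on day 2 and 3.34 on day 4 and 1.34 on the day of selection, when low-KLF4 cells had more of it. Cd34, a sialomucin of fibroblasts and progenitors, read 2538, 2599, 1920.3 and 3108 through day 8, while low-KLF4 cells read 2188, 1184, 713 and 389, and the early difference did not pass (0.67, adjusted p = 0.558). Cemip, a hyaluronan-degrading protein, read 705, 1010.4, 973 and 1428 against 231, 202, 301 and 201 and differed by 1.97 ± 0.23 (adjusted p = 0.00683). The summed signal of the fibroblast list differed between the day 8 arrays of 1 cassette, from 29757 to 100976 in low-KLF4 and from 55087 to 106142 in high-KLF4 cells, and its part in these members was not tested. Of 26 interferon response genes, 4 were members and 0 were called in either direction on days 2 and 4. Usp18, a deconjugase of ISG15, read 2349, 1177, 830.1 and 884 in high-KLF4 cells against 2315, 810.0, 774 and 218 in low-KLF4 cells, so that the second low-KLF4 day 8 array sets its place. Xaf1, an apoptosis factor, read 509 and 779.6 on day 8 against 349 and 214, and Lgals9, a galectin, read 1523 and 2721 against 853 and 553.

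Over the members, the median difference between the cassettes was 0.79 on day 2 and 1.13 on day 4. On day 8 it was 1.62, a value the selection sets, and on day 18 it was 0.32. Members at least 1 above low-KLF4 cells numbered 85 on day 2, when 1.00% of all probes were, and 129 on day 4, when 1.64% were. On day 8 all 217 were, by selection, beside 2.56% of all probes, and on day 18 it was 40, beside 0.867%. By sign alone, 210 members were above the low-KLF4 array on day 2, beside 55.7% of all probes, 215 on day 4, beside 42.7%, all on day 8, beside 43.8%, and 170 on day 18, beside 43.2%. The median member signal went from 485.0 on day 2 to 584.4, 689.3 and 263.1 in high-KLF4 cells, and from 209.9 to 202.0, 197.5 and 180.9 in low-KLF4 cells.

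**Figure D3:**
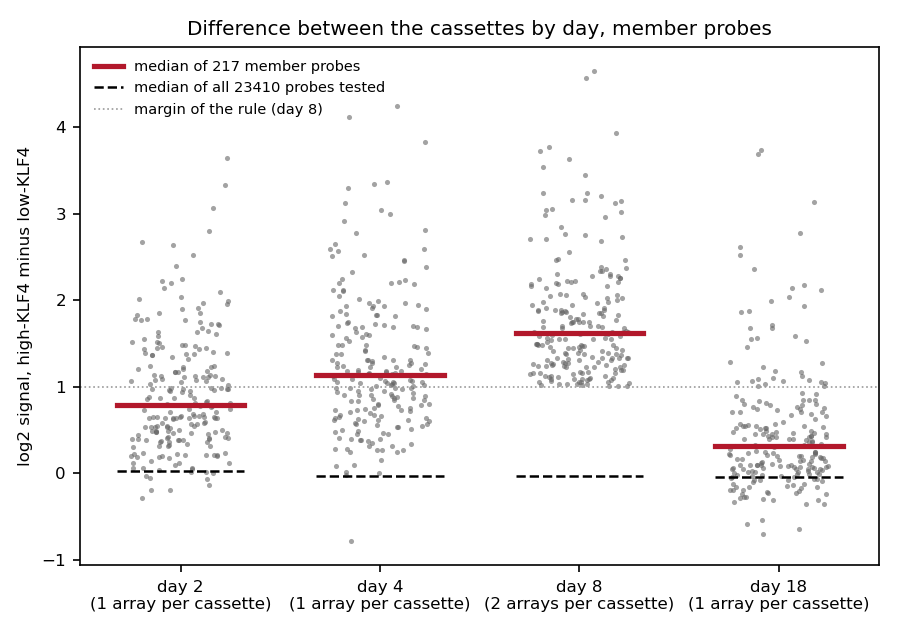
Log2 difference of high-KLF4 over low-KLF4 cells for each member on days 2, 4, 8 and 18, 1 point a probe, with the members' median as a solid bar, the median of all tested probes as a dashed bar and the margin of 1 as a dotted line. The members' median is 0.79, 1.13, 1.62 and 0.32, and day 8 is the day on which they were chosen.

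Between days 2 and 8, 122 of 217 members changed by less than the 2 limits set here, beside 96.5% of all tested probes. The limits were a gain of 1 in high-KLF4 cells or a loss of 1 in low-KLF4 cells. For 64 members, high-KLF4 cells were at least 1 higher on day 8 than on day 2, beside 2.17% of all tested probes. For 31, low-KLF4 cells were at least 1 lower, beside 1.39% of all probes, and 0 members met both limits, beside 0.00854%. The day 8 arrays chose the members, so nothing is read from these counts. Obox6 gained 4.18 in high-KLF4 cells beside 1.90 in low-KLF4 cells, Dkkl1 3.52, Gabrp 3.44 and Nos1 3.13. Gpr50 in low-KLF4 cells fell by 2.53 while high-KLF4 cells were 0.21 higher, Usp18 stood at -2.49 and -1.46 in the 2 cassettes, Cd34 at -2.05 and -0.05, and Msln at -1.53 and 0.57. Day 8 was the highest high-KLF4 day for 126 members, day 4 for 39, day 2 for 37 and day 18 for 15. Members that gained at least 1 between days 4 and 8 in high-KLF4 cells numbered 31, among them 2610528A11Rik, Prom2, Nos1 and Elf5. These are single arrays for days 2 and 4, so these changes carry no test.

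**Figure D4:**
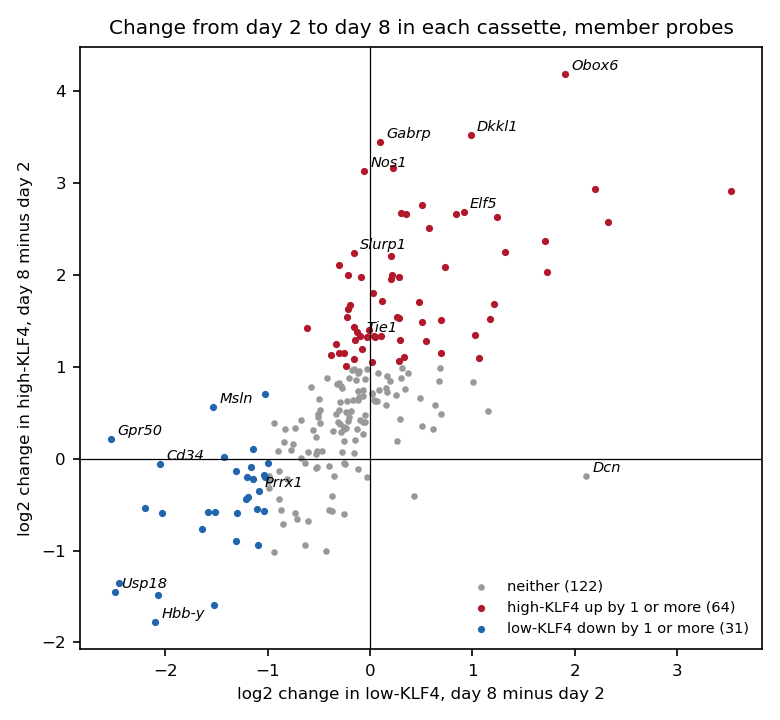
Log2 difference between day 8 and day 2 in high-KLF4 cells against the same difference in low-KLF4 cells, 1 point a member, with lines at 0. The 64 members at least 1 higher in high-KLF4 cells and the 31 at least 1 lower in low-KLF4 cells are coloured, and no point is both.

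The test of day 4 against day 2 over both cassettes called few genes. Over all probes it called 0.124% higher and 0.0812% lower on day 4, and among the members 5 higher and 1 lower. The 5 became 0 or 1 without any 1 array of day 2, day 4, the clones or mESCs, 2 without either keratinocyte array, 8 without either low-KLF4 day 8 array and 38 with all 4 day 8 arrays left out. Those higher were Dkkl1, at 1.42 ± 0.17 (adjusted p = 0.0247), Obox6, at 2.11 ± 0.24 (adjusted p = 0.0235), and Them5, Atp2a3 and a probe of Idi2, which are named here after their values were seen. Them5, a mitochondrial acyl-CoA thioesterase, read 231 and 584 in high-KLF4 cells against 88.4 and 1007 in low-KLF4 cells, so that its order between the cassettes turned from day 2 to day 4. Atp2a3, a calcium pump of the endoplasmic reticulum, read 345 and 1292 against 84.0 and 521. The gene that fell was Aqp5, by 1.43 ± 0.20 on the log2 scale (adjusted p = 0.0482).

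Some members showed little early difference. Upk3b, a uroplakin of mesothelium and bladder, read 118 and 125 on days 2 and 4 and 188 and 361 on day 8, while low-KLF4 cells read 120.3, 124, 93.5 and 109. Prom2, a prominin of plasma membrane protrusions, read 104, 106, 257 and 1368 against 119, 100.1, 121 and 258. Lbp, the lipopolysaccharide binding protein, read 98.5, 131, 276 and 561 against 120.1, 122, 156 and 124. Nkd2, an inhibitor of Wnt signalling, was bright early in both cassettes, at 553 and 590.1 against 608 and 530.2, and differed only later, with 589 and 429 against 282 and 213. The day 2 and 4 differences of these 4 lay between -0.09 and 0.01, the smallest among the members, with adjusted p between 0.981 and 0.999.

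On day 18 most members had lower signals in high-KLF4 cells than on day 8. They were at least 1 lower than on day 8 for 155 probes, and at or above the day 8 mean for 17. The members were chosen for high signal on day 8, and day 18 is 1 array per cassette. Nothing is read from these counts. The highest day 18 levels relative to day 8 belonged to Aqp1, at 1187 against 656 and 471, Bmp2, at 485 against 284 and 326, 2610528A11Rik, a secreted epithelial protein gene, at 3770.4 against 1644 and 3798, Elf5 and Cdhr1, a photoreceptor cadherin, at 389.8 against 163 and 514. Low-KLF4 cells on day 18 read 1775 for Aqp1 and 552 for Bmp2, above high-KLF4 cells, and 294, 108 and 161 for the other three. 2610528A11Rik and Cdhr1 lie 3793 bases apart on chromosome 14, and both showed their largest signals on day 8 array 2 and day 18.

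Members also neighboured each other in 14 places, within 100000 bases. How often array genes at large lie this close was not counted, so nothing is read from that number. Neighbours did not share a time course in each case. Slurp1 and Lypd2, a further gene of the Ly6 and uPAR fold, are 4223 bases apart on chromosome 15, and Lypd2 read 213, 363, 282, 625 and 533 in high-KLF4 cells, so that it kept its level on day 18 when Slurp1 was at 217. Mal and Prom2 are 91809 bases apart on chromosome 2, and Mal was called on days 2 and 4 while Prom2 stood at 104 and 106. S100a3 and S100a4, calcium binding proteins 1064 bases apart on chromosome 3, read 768 and 1526 and 1799.9 and 882 in the 2 high-KLF4 day 8 arrays.

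The members' signal was low in the iPSC clones of both cassettes. The median member signal was 134.4 in the OK+9MS clones and 133.3 in the OKMS clones, and 209 of 217 members were at least 1 higher in high-KLF4 cells on day 8 than in both groups of clones. The clones did not choose the members, but the mESCs did, and their median member signal, 134.2, was close to that of the clones. The low level in the clones and the 209 are thus given as a description, from which nothing is read. The tests against the clones below share this limit. Against their own clones, high-KLF4 cells of days 2 and 4 were higher in 173 probes for 162 genes, or 79.7%, and lower in 1, where over all probes 18.4% were called higher and 15.3% lower. The median member difference was 1.64, against 0.09 over all probes. The same comparison in low-KLF4 cells gave 80 probes for 77 genes higher, or 36.9%, and 9 lower, beside 16.8% and 12.9% over all probes, with a median of 0.45. Without clone A9 the low-KLF4 count was 35. Members called in both cassettes numbered 80, in the high-KLF4 cells alone 93, in the low-KLF4 cells alone 0, and 44 in neither. Over all tested probes the shares were 11.3%, 7.07%, 5.54% and 76.1% in the same order. A call in 1 cassette alone is not a tested difference between the cassettes, and the test of that difference, given further on, called 20 members.

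Between the clones of the 2 cassettes, no member passed the test. Over all probes 0.00% were called higher and 0.00% lower in OK+9MS than in OKMS clones by limma, and 142 and 117 probes had an unadjusted p under 0.05. Among the members 0 were called in either direction, and 0 had an unadjusted p under 0.05, while the methods' t-test without adjustment gave 5 higher. Slurp1 read 122 and 107 in OK+9MS and 102 and 93.7 in OKMS clones, and Msln read 114 and 106 against 117 and 130.3.

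The difference between the cassettes on days 2 and 4 was itself compared with that between the clones. It was larger in 20 member probes for 16 genes, or 9.22%, and in 0.248% of all probes, while 0.0299% of all probes and 0 members went the other way. Without either day 4 array the member count was 2, and without either high-KLF4 day 8 array it was 61. Spink2 had 2.84 ± 0.18 (adjusted p = 0.000762), Msln 2.29 ± 0.19 (adjusted p = 0.00332) and Pi16 1.61 ± 0.16 (adjusted p = 0.00737). Msln was high early in both cassettes, by 5.17 over the clones in high-KLF4 and by 2.88 in low-KLF4 cells, and Spink2 by 3.36 and 0.52. Aqp3 was above the clones by 2.52 (adjusted p = 0.000357) in high-KLF4 cells and at -0.32 (adjusted p = 0.396) in low-KLF4 cells, a difference of 2.84 ± 0.39 (adjusted p = 0.0335). On days 2 and 4 Obox6 stood at -1.68 (adjusted p = 0.00194) relative to the clones in low-KLF4 cells and at -0.71 (adjusted p = 0.0536) in high-KLF4 cells, and the difference between these did not pass (adjusted p = 0.675). Myl4, an atrial myosin light chain named after its values were seen, was the 1 member called lower than the clones in both cassettes, with 228 and 284 on days 2 and 4 in high-KLF4 cells and 509 and 616 in their clones.

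**Figure D5:**
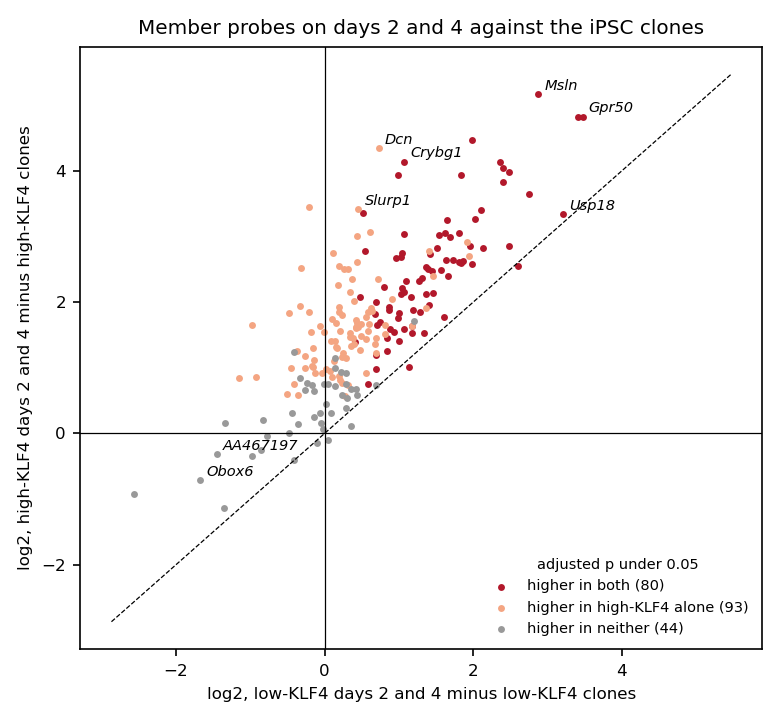
Log2 difference of days 2 and 4 over the iPSC clones of the same cassette, high-KLF4 against low-KLF4, 1 point a member, coloured by whether limma called it higher in both cassettes (80), in high-KLF4 cells alone (93) or in neither (44). Most points lie above the dashed line of equal differences, and Obox6 and AA467197 lie to the left of 0.

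The day 8 arrays that chose the members differed between themselves. In high-KLF4 cells, array 2 was above array 1 for 192 of 217 members, by a median of 0.68, and by at least 1 for 63 members, against 6 the other way. In low-KLF4 cells 103 were higher in array 2, with a median of -0.03. Within the arrays numbered 1, all 217 members were above low-KLF4 cells but only 138 by at least 1, and within those numbered 2, 216 were. Chosen without high-KLF4 array 2, the set held 271 probes, of which 133 were among the 217. The members with the narrowest pass were Capn8, Nbeal2, a vesicle protein, and Mcur1, a regulator of mitochondrial calcium uptake, whose smallest margins were 1.0059, 1.0066 and 1.0083. The probes closest below it were Rtn4r, Nfatc2 and Snx7, at 0.997, 0.9965 and 0.9917.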

How the data were processed

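RNA of sorted reprogramming intermediates, iPSC clones, mESCs and primary keratinocytes was hybridised to Affymetrix Mouse Gene 1.0 ST arrays. The deposited intensities had been summarised by the authors with RMA in GeneSpring and are linear values between 20.2 and 19538.7. The median of an array was 139.4 to 161.6. The deposited table holds no detection calls. Here log2 of these intensities was taken. The number of arrays limits the precision.

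The platform annotation gave 1 symbol for 21789 of 28853 probes, several for 1621 and none for 5443, and the 23410 with a symbol were tested. One limma fit (limma 3.58.1, R 4.3.3) held all 18 arrays in 12 groups, with 6 residual degrees of freedom. Days 2, 4 and 18 have 1 array per cassette and were assumed to vary like the duplicated groups. p-values were adjusted by Benjamini-Hochberg over all tested probes, with a threshold of 0.05. In data simulated for the day 2 and 4 comparison, the test called 72 of 100 probes with a log2 change of 1, 96 of 100 with a change of 2 and 13 of 23210 without one. The simulation gave each probe the same spread in every array, with independent noise. It cannot show how the test does where groups differ in spread. In the data, the SD of the log2 difference within a pair was 0.46 (low-KLF4) and 0.44 (high-KLF4) on day 8. Between clones it was 0.17 (OKMS) and 0.16 (OK+9MS).

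The members and the 23 gene lists were chosen with earlier results of these data known. The result of 1 list is not reported here. Genes were named by a rule: the 12 largest day 8 differences, the 8 largest and 4 smallest on days 2 and 4, the 5 highest in keratinocytes, in mESCs and on day 18 relative to day 8, the 3 nearest the threshold on each side, and 3 members of each list by day 8 difference. Other genes of lists or pairs with few calls (Lypd2, S100a3, S100a4, Tspan15, Upk1b, Krt8, Krt19, Ehf, Zfp78, Ptger3, Dgat2) and those marked so in the text were added after their values were seen. Promoters are RefSeq windows on GRCm38.p6, and gene positions are on the same assembly. Alternatives were other margins, scalings, filters, adjustments and subsets of arrays, and the Student's t-test of the methods (the methods' t-test). Arrays of fibroblasts, of day 6 and of TROP2-sorted cells were not analysed here.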

Additional observations from a re-analysis of the deposited data

Results flagged for a closer look

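For 20 member probes the difference between the cassettes on days 2 and 4 was larger than that between their iPSC clones, by the limma test of the difference itself (adjusted p under 0.05). In log2 units the excess was 3.07 for Crybg1, 2.96 for Slurp1, 2.95 for Mal, 2.84 for Spink2 and 2.84 for Aqp3. For Tspan15 it was 2.62, for Prelp 2.48, for Birc7 2.36, for Rhof 2.30 and for Msln 2.29, and for Dkkl1 2.27. It was 2.20 for the brightest of 4 probes of Unc13c, 1.61 for Pi16 and 1.35 for Chit1. The smallest were 0.95 for Adipor2 and 0.92 for Idi2. Prelp, a matrix proteoglycan, read 2009 and 3273 on days 2 and 4 in high-KLF4 cells against 288 and 696 in low-KLF4 cells, with 109.8 to 121 in the clones. Tspan15, a tetraspanin, read 594 and 872 against 129 and 124, and the clones of both cassettes lay between, at 223 to 277.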

How the results depend on the processing

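Days 2 and 4 have single arrays, the 2 cassettes share no replicate there, and without detection calls dim probes cannot be told from background. Of 217 members, 101 passed a margin of 1.5, 41 a margin of 2, and 76 when every array had to pass. Leaving out 1 array of the selecting groups gave 214 to 398 members, with 356 without low-KLF4 day 8 array 1 and 398 without high-KLF4 day 8 array 1. Without high-KLF4 day 8 array 2, 133 of the 217 were chosen again, and without any other 1 array 184 to 214 were. The other 4 ways of selecting gave 196 to 239.

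The day 8 arrays share replicate numbers, and the deviations of array 2 from array 1 correlated between the cassettes (r = 0.73 over 28853 probes). With a single pair this does not show that the numbers mark a shared batch. With a replicate block for the day 8 arrays, the counts of members called higher became 123 for high-KLF4 against low-KLF4 on days 2 and 4, 20 for day 4 against day 2, and 69 for the cassette difference beyond that of the clones. In fits of the contrast's arrays alone they were 104, 8 and 88. With all 4 day 8 arrays left out, a setting chosen after seeing the data, they were 169, 38 and 128, and low-KLF4 cells against their clones gave 133. The methods' t-test after Benjamini-Hochberg gave 0 and 0 for the first pair of comparisons, 30 for high-KLF4 and 0 for low-KLF4 cells against their clones; without adjustment it gave 1 for day 4 against day 2 and 5 between the clones. It could not be run on the last difference.

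Leaving out 1 array at a time gave 9 to 114 members for the cassettes on days 2 and 4, 0 to 8 for day 4 against day 2, 133 to 193 and 35 to 103 for high-KLF4 and low-KLF4 cells against their clones, 0 in each case between the clones, and 2 to 61 for the last difference. For 5 of the 75 named genes, the day 2 and 4 difference changed sign in some setting. Them5, not among the 75, stood at 1.38 on day 2 and -0.79 on day 4. With a second quantile normalization Nkd2 was -0.021 and Upk3b 0.0016. Leaving out 1 array gave -0.14 to 0.15 for Nkd2, -0.032 to 0.014 for Upk3b, -0.19 to 0.084 for Prom2, -0.29 to 0.10 for Lbp and -0.19 to 0.72 for Nos1, with the extremes without either day 4 or either day 2 array. Over 75 named genes and all settings, 1666 outcomes kept side and sign, 166 lost and 104 gained a call. The causes were not tested.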

Other observations

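Several members in none of the gene lists were also called on days 2 and 4, and they are named here after their values were seen. Mexis, a noncoding RNA near Abca1 on chr4:53261356-53270232, read 332, 421, 773, 1539 and 266 in high-KLF4 cells on day 2, day 4, the 2 day 8 arrays and day 18. In low-KLF4 cells it read 123, 133, 133, 133 and 132, and the early difference was 1.55 ± 0.26 (limma, adjusted p = 0.0382). Popdc3, a Popeye domain membrane protein of muscle, read 592, 578, 457, 861 and 145 against 212, 158, 124, 104 and 88.9 and differed by 1.68 ± 0.26 (adjusted p = 0.0272). A4galt, the synthase of the globoside Gb3, read 681 and 1336 on days 2 and 4 against 183 and 380.3 and differed by 1.85 ± 0.22 (adjusted p = 0.0077), and on day 18 the cassettes were at 1236 and 1029. Fam20c, a kinase of the secretory pathway, read 1239 and 1169.6 on days 2 and 4 against 421 and 359 and differed by 1.63 ± 0.26 (adjusted p = 0.0304).

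Tmem45b, a transmembrane protein gene, was among the 12 largest day 8 differences but not called early. It read 89.1, 163, 536, 1184 and 435 in high-KLF4 cells against 72.4, 72.2, 78.0, 91.9 and 98.3 in low-KLF4 cells (0.74 on days 2 and 4, adjusted p = 0.498). AA467197, a gene of unknown role here, read 215, 167, 527, 886 and 906 against 82.6, 85.1, 76.2, 68.4 and 248. In low-KLF4 cells of days 2 and 4 it was below the clones, which read 217 and 241, by a log2 difference of -1.45 (adjusted p = 0.00351).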
